A study of Mus musculus with 6 samples.

Results

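Creatine kinase transcripts and a few muscle transcripts with large differences between genotypes were examined in whole mouse skin. The set comprised 9 of the 23951 genes in the expression table, found by symbol. Ckm, Ckb, Ckmt1 and Ckmt2 are the creatine kinases and Slc6a8 is the creatine transporter. Mb, Fabp3, Lrrc30 and Lrrc38 were selected on their large FPKM differences between the genotypes in these same libraries. Differences between the genotypes are therefore given for all 9 genes as a description, with no p-value, and where members are counted among the genes called over the whole table, the count is a description too. RNA sequencing was performed on whole skin of 3 JunB dep mice and 3 JunB +/+ littermates, all C57Bl/6 and 6 to 7 months old. In JunB dep mice a floxed Junb gene was deleted by Cre under the keratin 5 promoter, which is active in basal keratinocytes and other K5-expressing epithelia, so muscle was not the targeted tissue. The paper describes the JunB dep skin as lesional, and the JunB +/+ mice served as controls. Libraries are named by genotype and by replicate number 0, 1 or 2. The 6 immune cell markers summed to 24550, 39.1 and 164 FPKM in JunB dep replicates 0, 1 and 2. In JunB +/+ replicates 0, 1 and 2 they summed to 1495, 61.4 and 44.2 FPKM, so they did not separate the groups.

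Creatine kinases pass phosphate between ATP and creatine, so that a store of phosphocreatine buffers ATP where demand changes fast. Ckm is the cytosolic enzyme of striated muscle and Ckb the cytosolic enzyme of brain and many other tissues, while Ckmt2 and Ckmt1 are the sarcomeric and the widely expressed (ubiquitous) mitochondrial enzymes. Slc6a8 carries creatine into cells. Mb encodes myoglobin, the oxygen-binding protein of muscle, and Fabp3 the fatty acid binding protein of heart and skeletal muscle. Lrrc38 is an auxiliary gamma subunit of the calcium-activated BK potassium channel, and Lrrc30 encodes a leucine-rich repeat protein. Mouse skin carries a sheet of skeletal muscle, the panniculus carnosus, beneath the dermis and fat, and whole skin samples can hold it.

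Values are FPKM, fragments per kilobase of transcript scaled to the mapped fragments of a library, as deposited. They sum to between 481078 and 630363 per library, and the read depth is unknown, so no counting interval is given. The deleted gene, Junb, had 59.3, 72.4 and 56.9 FPKM in JunB +/+ replicates 0, 1 and 2, and JunB dep replicates 1 and 2 were lower at 42.8 and 28.0 FPKM. The library labelled JunB dep replicate 0 held 129.6 FPKM of Junb, above every control. The deletion is limited to K5-expressing cells and whole skin holds other cells, so this value alone does not decide the label. Of the immune cell markers, Ptprc, Itgam, Cd68 and S100a8 were highest in that library, and Cd3e and S100a9 were lowest. Their part in its Junb value was not tested. That library also held the mucosal keratins Krt13 and Krt4 at 1990 and 1356 FPKM, where no other library reached 1 FPKM. Krt14 was listed at 0 there beside Krt5 at 3725 FPKM, and S100a9 at 0 beside S100a8 at 24456 FPKM. Whether these values of 0 are absence or a limit of quantification was not tested. Alb, a liver transcript, reached 823 FPKM in JunB +/+ replicate 0 and no more than 18.8 FPKM in any other library. Member values are therefore also given without these libraries.

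The 250 bases before the transcription start are shown for 5 members, 4 with a large difference between the genotypes and Ckb with a small one. They come from RefSeq promoter entries on GRCm38.p6, and each was placed on mm9 by its single exact match. Capitals mark E-boxes (CANNTG, the same on both strands) or, in Ckb, a match to the MEF2 motif, searched on both strands, which overlaps a TATA box (TATAAA). The windows lie at chr7:19996193-19996442 (plus strand) for Ckm, chr13:92016491-92016740 (minus) for Ckmt2, chr17:67982064-67982313 (minus) for Lrrc30, chr4:142939403-142939652 (plus) for Lrrc38 and chr12:112910550-112910799 (minus) for Ckb.
Ckm: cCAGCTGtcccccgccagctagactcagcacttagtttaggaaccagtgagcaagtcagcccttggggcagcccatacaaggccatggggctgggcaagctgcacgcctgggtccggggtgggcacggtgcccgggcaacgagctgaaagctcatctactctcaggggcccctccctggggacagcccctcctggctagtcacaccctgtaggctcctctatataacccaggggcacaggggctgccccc
Ckmt2: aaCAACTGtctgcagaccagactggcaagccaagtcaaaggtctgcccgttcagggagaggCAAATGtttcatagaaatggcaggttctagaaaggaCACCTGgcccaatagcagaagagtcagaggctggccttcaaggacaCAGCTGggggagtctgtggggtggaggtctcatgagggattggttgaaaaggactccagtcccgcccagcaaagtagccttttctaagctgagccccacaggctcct
Lrrc30: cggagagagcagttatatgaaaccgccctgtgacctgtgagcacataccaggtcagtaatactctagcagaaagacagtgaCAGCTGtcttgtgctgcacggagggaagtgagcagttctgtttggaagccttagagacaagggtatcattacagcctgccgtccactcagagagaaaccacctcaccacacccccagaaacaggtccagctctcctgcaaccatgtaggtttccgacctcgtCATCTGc
Lrrc38: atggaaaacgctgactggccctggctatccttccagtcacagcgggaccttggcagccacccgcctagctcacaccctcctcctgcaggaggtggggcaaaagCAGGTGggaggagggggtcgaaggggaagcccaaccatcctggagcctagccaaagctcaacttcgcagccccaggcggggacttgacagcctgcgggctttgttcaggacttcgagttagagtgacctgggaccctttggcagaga
Ckb: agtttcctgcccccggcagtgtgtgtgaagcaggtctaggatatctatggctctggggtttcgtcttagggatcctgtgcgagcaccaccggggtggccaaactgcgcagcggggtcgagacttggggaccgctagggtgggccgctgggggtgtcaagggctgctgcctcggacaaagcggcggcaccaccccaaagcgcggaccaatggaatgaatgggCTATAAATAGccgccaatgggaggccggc
E-boxes numbered 1 in Ckm, 4 in Ckmt2, 2 in Lrrc30 and 1 in Lrrc38, and Ckb had none. Of the 8 members with an entry, 6 held an E-box in at least 1 window and 2, Ckb and Ckmt1, in none. Slc6a8 was not among the entries. An E-box was present in 66.2% of all 32851 RefSeq mouse promoter windows of this length, the MEF2 motif in 2.92% and the TATA box in 12.4%, so an E-box is common in such windows. These matches are letters in a window and were not measured as binding sites.

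Ckm, on chromosome 7 (mm9, 19996443 to 20006932, 8 exons), was the most abundant member in controls. It stood at 2318, 2741 and 2143 FPKM in JunB +/+ replicates 0, 1 and 2 and at 160.0, 216 and 533 FPKM in JunB dep replicates 0, 1 and 2. Every JunB dep library was below every control, and the lowest control was 4.02 times the highest JunB dep library. The group means were 2401 ± 307 and 303 ± 201 FPKM (SD, n = 3 each), so the JunB dep mean was 12.6% of the control mean. The log2 difference was -3.17 with a standard error (SE) of 0.48, on the log2(FPKM + 0.5) scale used for every log2 difference here, which understates the difference of low genes. By mean level among all genes, Ckm was 14th in controls and 246th in JunB dep skin. In bulk skin, fewer muscle fibres and less of a transcript per fibre cannot be told apart. A930016O22Rik overlaps Ckm on the opposite strand and stood at 404, 631 and 358 FPKM in the 3 controls and at 29.9, 38.2 and 91.9 FPKM in JunB dep libraries. How strand was treated when reads were assigned is not stated in the sources at hand, so the reads of this pair of genes may not be separable.

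Ckb, the other cytosolic enzyme (chromosome 12, 112907566 to 112910549, 8 exons), showed no separation. Its values were 37.8, 56.8 and 34.9 FPKM in JunB +/+ mice and 15.5, 64.7 and 34.0 FPKM in JunB dep replicates 0, 1 and 2. JunB dep replicate 0 was the lowest and JunB dep replicate 1 the highest of all 6 libraries, so the groups overlapped. The means were 43.2 ± 11.9 and 38.1 ± 24.8 FPKM (SD, n = 3 each), with a log2 difference of -0.37 (SE 0.52). The sign rested on the library labelled JunB dep replicate 0, since the difference was 0.15 without it. In controls Ckb was at 1.44% to 1.79% of the summed FPKM of the 4 creatine kinases.

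Ckmt2, the mitochondrial enzyme of striated muscle (chromosome 13, 91992992 to 92016490, 10 exons), separated the groups more widely than Ckm. Controls held 196, 284 and 190.3 FPKM, and JunB dep libraries held 15.99, 10.7 and 23.1 FPKM. The lowest control was 8.23 times the highest JunB dep library, and the means were 223 ± 52.3 and 16.6 ± 6.22 FPKM. The JunB dep mean was 7.44% of the control mean, a 13.4-fold lower level, with a log2 difference of -3.75 (SE 0.32). Its place in the order of all genes by mean level was 348th in controls and 5037th in JunB dep skin.

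Ckmt1, the widely expressed mitochondrial enzyme (chromosome 2, 121183450 to 121189473, 9 exons in its longest transcript), did not share that direction. It was at 75.6, 97.0 and 61.4 FPKM in JunB +/+ skin and at 206, 92.1 and 75.7 FPKM in JunB dep replicates 0, 1 and 2. The library labelled JunB dep replicate 0 was above the other 5, and JunB dep replicates 1 and 2 lay within the control range. The means were 78.0 ± 17.9 and 124.6 ± 71.0 FPKM, and the log2 difference of 0.55 (SE 0.41) became 0.12 without that library. The mucosal keratins named above moved with the high Ckmt1 value, and their part in it was not tested.

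**Figure D1:**
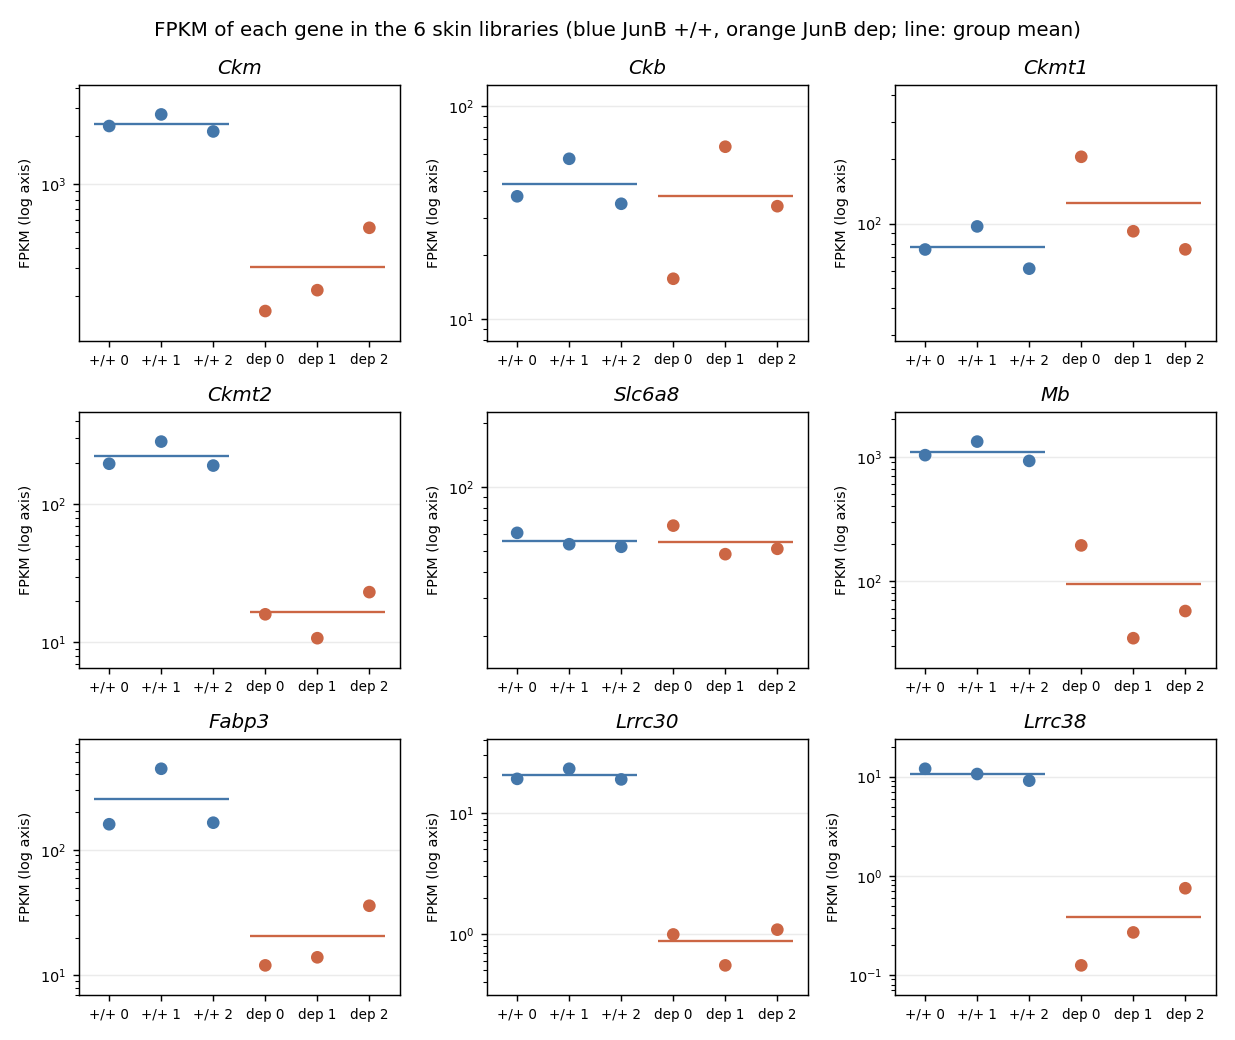
FPKM of the 9 members, each in a panel with its own log axis, with 1 point per library for the 3 JunB +/+ and the 3 JunB dep mice and a line at each group mean. Ckm, Ckmt2, Mb, Fabp3, Lrrc30 and Lrrc38 leave a gap between the groups, whereas Ckb, Ckmt1 and Slc6a8 overlap.

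The 4 creatine kinases together summed to 2628, 3178 and 2430 FPKM in the 3 controls and to 397, 384 and 666 FPKM in JunB dep libraries. Their make-up differed as well. Ckm held 88.2%, 86.2% and 88.2% of that sum in controls and 40.3%, 56.4% and 80.0% in JunB dep replicates 0, 1 and 2. Ckmt1 held 2.53% to 3.05% in controls, against 51.8%, 24.0% and 11.4% in JunB dep replicates 0, 1 and 2. The 3 JunB dep libraries thus differed widely among themselves, and JunB dep replicate 2 was the closest to the controls. Of the mitochondrial forms alone, Ckmt2 held 72.2%, 74.5% and 75.6% in controls and 7.20%, 10.5% and 23.4% in JunB dep libraries, so the order of Ckmt2 and Ckmt1 was the opposite in the groups in all 6 libraries.

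**Figure D2:**
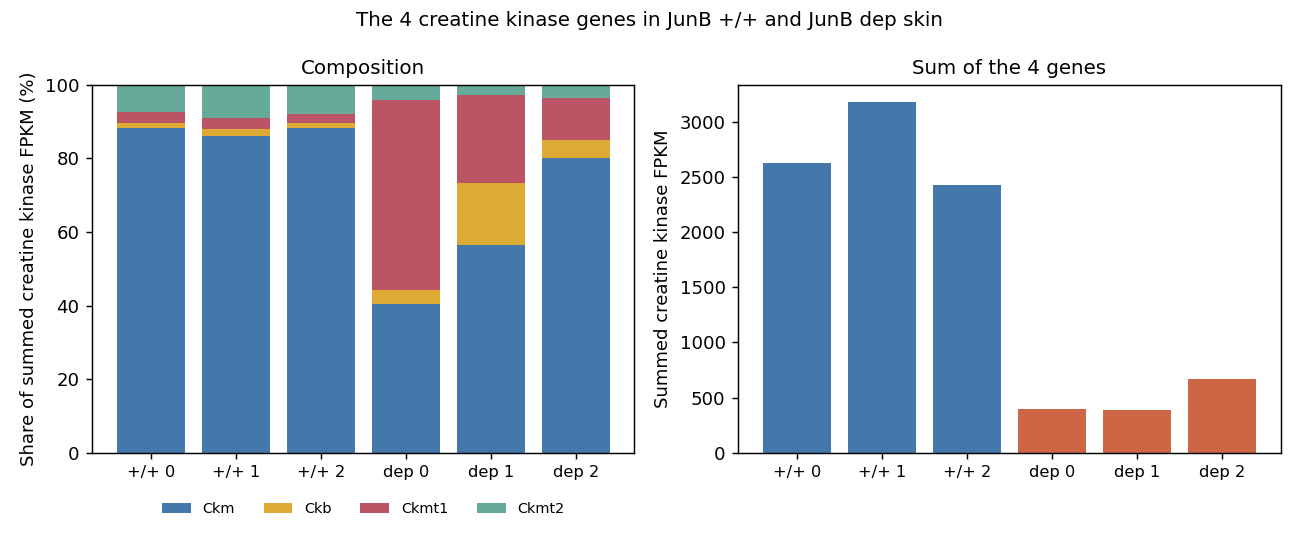
Share of each creatine kinase in the summed FPKM of the 4 genes, in percent, as a stacked bar for each library (left), and that sum in FPKM, from 384 to 3178 (right). Ckm fills 86.2% to 88.2% of the bar in controls and 40.3% to 80.0% in JunB dep libraries, where Ckmt1 takes 11.4% to 51.8%.

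Slc6a8, the creatine transporter (X chromosome, 70918489 to 70927841, 13 exons in its longest transcript), was nearly level. It stood at 60.9, 53.8 and 52.4 FPKM in JunB +/+ mice and at 65.8, 48.3 and 51.2 FPKM in JunB dep replicates 0, 1 and 2. The groups overlapped, with the library labelled JunB dep replicate 0 the highest of all 6. The means were 55.7 ± 4.55 and 55.1 ± 9.37 FPKM, and the log2 difference was -0.02 (SE 0.17), the smallest of the 9. Leaving out single libraries moved it between -0.16 and 0.06.

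Mb, the oxygen carrier (chromosome 15, 76845919 to 76881100, 3 exons in its longest transcript), was at 1031, 1326 and 927 FPKM in JunB +/+ skin. JunB dep replicates 0, 1 and 2 held 193.5, 34.6 and 57.3 FPKM, so the groups did not overlap and the lowest control was 4.79 times the highest JunB dep library. The library labelled JunB dep replicate 0 was 5.59 times JunB dep replicate 1, the widest spread within JunB dep skin after that of Lrrc38. The means were 1095 ± 207 and 95.2 ± 85.9 FPKM, 11.5-fold apart, with a log2 difference of -3.88 (SE 0.62) that reached -4.59 without the library labelled JunB dep replicate 0. Apol6, on the opposite strand at the same place, was at 28.9, 66.6 and 18.3 FPKM in the 3 controls and 0.754, 16.7 and 46.8 FPKM in JunB dep libraries.

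Fabp3, the fatty acid carrier (chromosome 4, 129985839 to 129992707, 4 exons), was at 159.5, 441 and 164 FPKM in JunB +/+ mice and at 12.01, 13.9 and 35.8 FPKM in JunB dep libraries. The groups did not overlap, and JunB +/+ replicate 1 was 2.76 times the lowest control, the widest spread among controls of the 9 genes. In that same library the summed FPKM of 8 slow fibre genes was 99.4, against 24.5 and 31.2 in the other controls, and whether the 2 are related was not tested. The Fabp3 means were 255 ± 161 and 20.6 ± 13.2 FPKM, 12.4-fold apart, and the log2 difference of -3.60 (SE 0.57) was -3.12 without JunB +/+ replicate 1. Zcchc17, which overlaps Fabp3 on the opposite strand, stayed between 16.8 and 25.5 FPKM in all 6 libraries.

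Lrrc30 (chromosome 17, 67980305 to 67982063, 1 exon) had a log2 difference near -4, and its place among the 9 depended on the settings. Controls held 19.2, 23.3 and 18.99 FPKM and JunB dep libraries 0.991, 0.550 and 1.09 FPKM, with 17.5-fold between the lowest control and the highest JunB dep library. The means were 20.5 ± 2.41 and 0.876 ± 0.286 FPKM, 23.4-fold apart, and the log2 difference was -3.95 (SE 0.24). This was the narrowest spread of any member with a large difference, and leaving out single libraries moved it between -4.06 and -3.76.

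Lrrc38, the BK channel gamma subunit (chromosome 4, 142939660 to 142960935, 2 exons), was at 12.02, 10.6 and 9.11 FPKM in JunB +/+ skin and at 0.125, 0.269 and 0.749 FPKM in JunB dep replicates 0, 1 and 2. The means of 10.6 ± 1.45 and 0.381 ± 0.327 FPKM were 27.8-fold apart, the widest ratio of FPKM means among the members, and the groups did not overlap. The log2 difference of -3.71 (SE 0.32) is smaller than that ratio because of the added 0.5, and it was -4.69 with 0.1 and -3.09 with 1 in its place. The JunB dep values are close to the low end of the table, where the unknown depth limits them most.

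**Figure D3:**
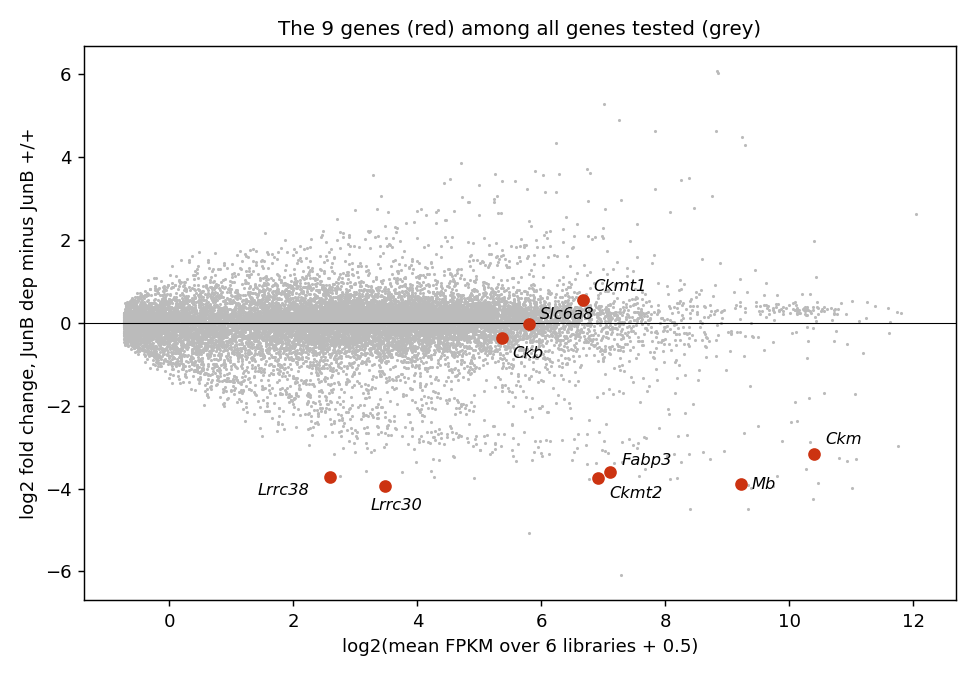
Log2 of the mean FPKM over the 6 libraries plus 0.5 (horizontal) against the log2 difference JunB dep minus JunB +/+, for each tested gene as a grey point and for the 9 members as labelled points. Ckm, Ckmt2, Mb, Fabp3, Lrrc30 and Lrrc38 lie between -3.17 and -3.95, and Slc6a8, Ckb and Ckmt1 lie between -0.37 and 0.55.

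Ordered by mean FPKM, the control levels ran from Ckm at 2401 through Mb at 1095, Fabp3 at 255, Ckmt2 at 223, Ckmt1 at 78.0, Slc6a8 at 55.7, Ckb at 43.2 and Lrrc30 at 20.5 to Lrrc38 at 10.6. Of these neighbours, Fabp3 and Ckmt2 overlapped in their control values, as did Slc6a8 and Ckb. In JunB dep skin the order was Ckm at 303, Ckmt1 at 124.6, Mb at 95.2, Slc6a8 at 55.1, Ckb at 38.1, Fabp3 at 20.6, Ckmt2 at 16.6, Lrrc30 at 0.876 and Lrrc38 at 0.381 FPKM. Each neighbouring pair in JunB dep skin overlapped except Ckmt2 and Lrrc30.

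A test across the whole table, limma with Benjamini-Hochberg adjustment over 17021 genes, called 235 genes lower in JunB dep skin (1.38%) and 0 higher (0.0%). At an unadjusted p under 0.05, 243 genes were higher (1.43%) and 1044 lower (6.13%). All 9 members passed the filter on low values, 5 were called lower (Ckm, Ckmt2, Fabp3, Lrrc30 and Lrrc38) and 6, these and Mb, had no overlap, against 9.16% of all tested genes without overlap in that direction and 5.62% in the other. Leaving out any single control or JunB dep replicate 1 gave 0 called genes, and leaving out the library labelled JunB dep replicate 0 gave 131, of which 11 were higher. A block on the number series of the sample titles, described below, also gave 0. The members were taken from this comparison, so nothing is read from these counts. Their median log2 difference was -3.60, and that of all tested genes 0.03. Ranked by the size of the fall among called genes without overlap, Lrrc30, Ckmt2, Lrrc38 and Fabp3 held places 1, 2, 4 and 5. The place between them was that of Myh2, at -3.74, a fast myosin heavy chain. Just outside stood Pgam2, the muscle phosphoglycerate mutase, at -3.37 (465, 782 and 426 FPKM in the 3 controls and 44.9, 39.4 and 77.7 FPKM in JunB dep libraries), next to Fabp3 at -3.60 just inside. Ckm ranked 19th.

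The number series of the sample titles gives 2 sets of libraries, with 1 JunB dep and 2 JunB +/+ libraries in the lower-numbered and 2 JunB dep and 1 JunB +/+ library in the higher-numbered. Within the lower-numbered set the log2 difference was -3.97 for Ckm, -3.84 for Ckmt2, -2.59 for Mb, -4.41 for Fabp3, -3.86 for Lrrc30 and -4.24 for Lrrc38. Within the higher-numbered set it was -2.66, -3.55, -4.36, -2.85, -3.92 and -3.29 in the same order. All 6 were lower in JunB dep skin in each set. This follows from every JunB dep library being below every control for these genes, so nothing is read from it. Ckb was at -1.55 in the lower-numbered and 0.42 in the higher-numbered set, Ckmt1 at 1.26 and 0.44, and Slc6a8 at 0.20 and -0.07. Without both the library labelled JunB dep replicate 0 and JunB +/+ replicate 0, the differences were -2.83 for Ckm, -3.84 for Ckmt2, -4.62 for Mb, -3.56 for Fabp3, -4.06 for Lrrc30 and -3.40 for Lrrc38, and they were 0.07 for Ckb, 0.11 for Ckmt1 and -0.09 for Slc6a8.

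The members with large differences were set beside 15 other transcripts of skeletal muscle, among them Acta1, Tnnt3, Mylpf, Ttn and Ryr1. These summed to 21980, 29360 and 21490 FPKM in JunB +/+ mice and to 2292, 2038 and 4824 FPKM in JunB dep libraries, all 15 without overlap (9.16% of all tested genes), and 14 of them fell by the whole-table test (1.38% of all) while Actn3, at -2.62, did not pass. With any single control or JunB dep replicate 1 left out, or with a block on the title number series, 0 genes were called, these included. Their median log2 difference was -2.89. Relative to the median log2 level of these 15 genes in the same library, Ckm was at 1.82, 1.70 and 1.87 in controls and at 1.35, 1.82 and 2.02 in JunB dep libraries, a difference of -0.06 with overlap. That mean covers libraries on both sides, since JunB dep replicate 0 stood below all 3 controls and JunB dep replicate 2 above them. Ckmt2 differed by -0.64, Lrrc30 by -0.84 and Lrrc38 by -0.60 on this scale, each with every JunB dep library below every control. Mb, Fabp3, Lrrc30 and Lrrc38 were selected on large differences in these libraries, so nothing is read from their standing relative to the reference. Fabp3 differed by -0.49 with overlap. Mb was at 0.65, 0.65 and 0.66 in controls and at 1.62, -0.80 and -1.19 in JunB dep replicates 0, 1 and 2, so the library labelled JunB dep replicate 0 stood above the controls and the other 2 below. Slc6a8, Ckb and Ckmt1 stood above the controls on this scale by 3.08, 2.74 and 3.66, where the reference median itself differed by -3.11.

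**Figure D4:**
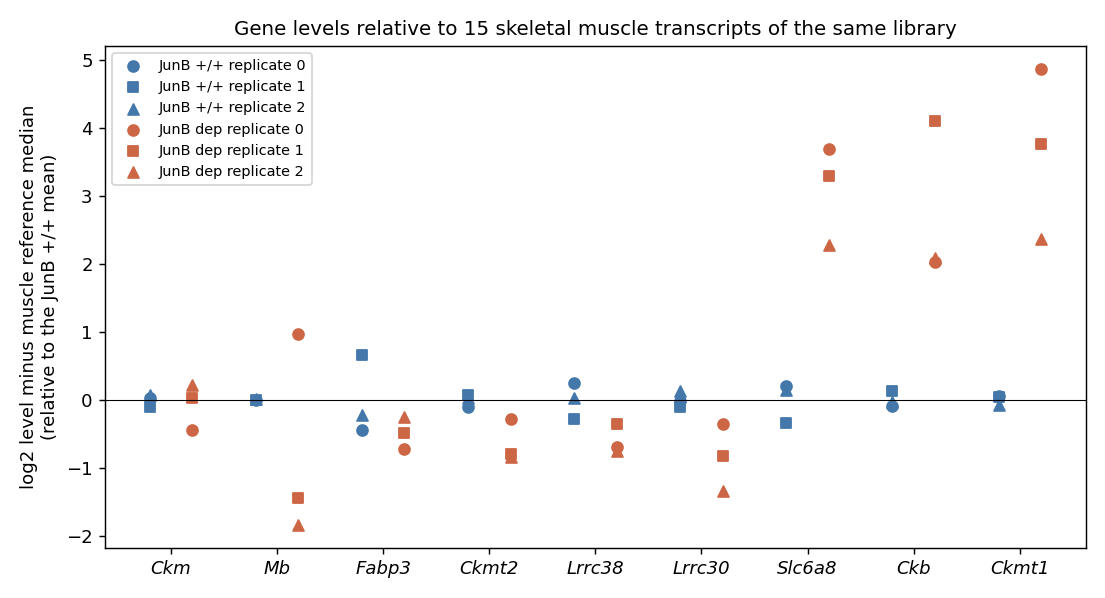
Log2(FPKM + 0.5) of each member minus the median of 15 skeletal muscle genes in the same library, as a difference from the control mean, for each of the 6 libraries. Ckm lies on both sides of 0 in JunB dep libraries (mean difference -0.06), Ckmt2, Lrrc30 and Lrrc38 lie below (-0.64, -0.84 and -0.60), and Mb divides between the library labelled JunB dep replicate 0 and the other 2.

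Set against Ckm itself, Mb was at 44.5%, 48.4% and 43.3% of the Ckm FPKM in controls and at 121%, 16.0% and 10.8% in JunB dep replicates 0, 1 and 2. Lrrc30 was at 0.828% to 0.886% of Ckm in controls and at 0.620%, 0.254% and 0.204% in JunB dep libraries, and Lrrc38 at 0.388% to 0.518% and at 0.0781%, 0.124% and 0.141%. For Lrrc30 and Lrrc38 the groups did not overlap in this ratio. Ckmt2 was at 8.47% to 10.4% of Ckm in controls, and JunB dep replicate 0 lay within that range while JunB dep replicates 1 and 2 were at 4.97% and 4.34%, so the groups overlapped here although they did not relative to the 15 muscle genes. Fabp3 was at 6.88%, 16.1% and 7.66% of Ckm in controls and at 7.51%, 6.43% and 6.72% in JunB dep libraries, which overlap.

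The genes outside the 9 members with the profile most like each member over the 6 libraries were found by the root-mean-square difference of centred log2(FPKM + 0.5) values, among 13733 genes. For Ckm they were Casq1 (0.104), Tnnt3 (0.129) and Myoz1 (0.132), and for Ckmt2 they were Pgam2 (0.238), Tnni2 (0.269) and Tnnc2 (0.281). For Fabp3 they were Myh2 (0.261), Tnnc2 (0.295) and A930016O22Rik (0.307), for Lrrc30 Myom2 (0.39), Pgam2 (0.397) and Apobec2 (0.411), and for Lrrc38 Hhatl (0.286), Apobec2 (0.289) and Casq1 (0.308). Mb had no gene as near as these, with Actn2 at 0.658 and Smpx and Myh1 at 0.663. The nearest to Ckmt1 were Rhod (0.08), Aprt (0.084) and Eif6 (0.091), to Ckb H2afv (0.112), Ifit3 (0.14) and Tfap2e (0.154), and to Slc6a8 Rbpj (0.038), Ppl (0.044) and Tmcc1 (0.052). Small distances are easier to reach for genes that vary little, such as Slc6a8. Among the members themselves the closest pair was Ckmt2 and Lrrc30 at 0.203, whereas Ckm and Mb were 1.134 apart. These distances include the genotype difference on which members were selected, so nothing is read from them.

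The genes that make and export creatine did not pass the limma test, 0 of 3, with 2 lower at an unadjusted p under 0.05 (6.13% of all tested genes). Gamt, which makes creatine, was at 21.7, 16.7 and 12.9 FPKM in JunB +/+ skin and 2.58, 6.47 and 9.18 FPKM in JunB dep libraries. Gatm, which makes its precursor, was at 10.02, 11.7 and 6.83 against 0.996, 3.48 and 7.71 FPKM, and the creatine exporter Slc16a12 at 2.34, 1.80 and 1.55 against 0.462, 0.479 and 0.765 FPKM. Gamt and Slc16a12 were lower without overlap (9.16% of all tested genes), Gatm overlapped, and the median log2 difference of the 3 was -1.42.

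Adenylate kinases share the work of balancing ATP and ADP, and 1 of 6 tested passed, where 1.38% of all tested genes were called lower and 0.0% higher. Ak1, the muscle cytosolic form, fell from 178, 211 and 161 FPKM in the 3 controls to 20.9, 24.3 and 42.9 FPKM in JunB dep libraries (log2 difference -2.68, limma adjusted p = 0.0204). The median of the 6 was 0.01. Of 6 ADP/ATP carriers, phosphate carriers and mitochondrial pores, Slc25a4, the carrier of striated muscle, fell from 1019, 1646 and 1018 FPKM to 201, 167 and 281 FPKM (-2.50, limma adjusted p = 0.0263), while Slc25a5, the more widely expressed carrier, was at 199.9, 184 and 256 FPKM in JunB +/+ skin and at 571, 361 and 253 FPKM in JunB dep libraries, which overlap. The median of these 6 was -0.59.

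Among the genes that go with Mb and Fabp3 (1.38% of all tested genes were called lower), of 10 subunits and regulators of oxidative muscle Cox6a2 and Cox7a1 fell, at -3.20 (limma adjusted p = 0.0204) and -3.08 (limma adjusted p = 0.0179). Cox8b, at -2.77, did not pass. These are muscle forms of cytochrome c oxidase subunits. Of 18 genes of fatty acid uptake and β-oxidation, Cpt1b, the muscle form of the enzyme that lets long-chain fatty acids into mitochondria, fell from 46.0, 51.8 and 49.2 FPKM to 4.91, 5.07 and 9.55 FPKM (-2.88, limma adjusted p = 0.0179), and the other 17 did not pass. The medians of these lists were -0.94 and -0.60. The calls of Ak1, Slc25a4, Cox6a2, Cox7a1 and Cpt1b were all lost when any single control or JunB dep replicate 1 was left out (0 called). They were also lost with a block on the title number series (0 called). Without the library labelled JunB dep replicate 0, 3 genes of these lists were called. Of 5 globins other than Mb, 0 passed the limma test, and 0 were past an unadjusted p of 0.05.

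Of 7 other tested Fabp genes, 0 passed the limma test and 0 were past an unadjusted p of 0.05. Fabp3 made up 9.02%, 12.6% and 11.8% of the summed FPKM of the tested family in controls and 0.187%, 0.638% and 0.464% in JunB dep libraries. Fabp4, of fat cells, was at 1272, 2890 and 836 FPKM in the 3 controls and at 56.0, 1680 and 7288 FPKM in JunB dep replicates 0, 1 and 2, and Fabp5, of epidermis, was at 294, 171 and 383 against 6336, 483 and 397 FPKM. Fabp5 and Fabp7 were higher without overlap (5.62% of all tested genes) and Pmp2 was lower without overlap (9.16% of all), the last at 0.217 to 0.304 FPKM against 0.0655 to 0.207 FPKM. Fabp7 was at 0.601 to 0.749 FPKM in JunB +/+ mice and at 21.3, 1.22 and 1.47 FPKM in JunB dep libraries. The high Fabp5 and Fabp7 values were in the library labelled JunB dep replicate 0.

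Of 5 tested BK channel subunits other than Lrrc38, 0 passed the limma test and 1 was lower at an unadjusted p under 0.05 (6.13% of all tested genes), with 2, Kcnma1 and Lrrc52, lower without overlap (9.16% of all). Kcnma1, the pore-forming subunit, was at 1.91, 2.01 and 3.93 FPKM in JunB +/+ skin and at 0.445, 0.334 and 0.646 FPKM in JunB dep libraries, without overlap (log2 difference -1.63). Lrrc26, another gamma subunit, was above 1 FPKM only in JunB +/+ replicate 2 (26.8 FPKM) and JunB dep replicate 2 (1.13 FPKM). For the other leucine-rich repeat genes named Lrrc, a list added after values were seen, the median log2 difference of 52 genes was 0.10, 8 were lower and 3 higher without overlap (9.16% and 5.62% of all tested genes), and 2, Lrrc14b and Lrrc2, were called lower (1.38% of all). Lrrc2 was at -1.46 and Lrrc14b at -2.21 (14.6, 13.0 and 14.2 FPKM against 2.26, 2.26 and 3.44 FPKM).

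Fibre type genes and markers of other tissues that could hold these transcripts were summed in each library. The fast fibre list is not separate from the muscle reference, with which it shares Actn3, Tnnt3, Tnnc2, Tnni2, Mylpf, Myl1, Atp2a1 and Casq1. Of 12 fast fibre genes, 9 fell and all 12 were without overlap, with a median of -3.17, where 1.38% of all tested genes were called lower and 9.16% were lower without overlap. Of 8 slow fibre genes 0 passed the limma test and 2 were lower at an unadjusted p under 0.05 (6.13% of all tested genes), and 3, Myh7, Myl2 and Myoz2, were lower without overlap, with sums of 24.5, 99.4 and 31.2 FPKM in the 3 controls and 28.6, 11.4 and 6.34 FPKM in JunB dep libraries. The 5 heart muscle markers summed to 23.1 to 25.7 FPKM in JunB +/+ mice and 11.7 to 18.4 FPKM in JunB dep libraries. The 5 brown fat markers summed to 77.8, 46.8 and 57.9 FPKM in JunB +/+ replicates 0, 1 and 2. In JunB dep replicates 0, 1 and 2 they summed to 88.6, 63.1 and 80.9 FPKM. Ucp1 was higher without overlap (5.62% of all tested genes), at 0.0643 to 0.112 FPKM against 0.163, 0.123 and 1.73 FPKM. Ppargc1a was lower without overlap (9.16% of all), at 1.15 to 1.23 FPKM against 0.218, 0.271 and 0.621 FPKM. Elovl3, Cidea and Dio2 overlapped. Mb, at 34.6 and 57.3 FPKM in JunB dep replicates 1 and 2, was below the brown fat sums there. Those sums were mostly Elovl3 (47.4 and 40.7 FPKM) and Cidea (13.4 and 37.0 FPKM). The part of heart, slow fibre or brown fat transcripts in the Mb values was not tested. Smooth muscle markers summed to 118, 201 and 176 FPKM in the 3 controls and to 67.5, 200 and 217 FPKM in JunB dep libraries, which overlap. White fat markers summed to 1675, 2938 and 1056 FPKM in JunB +/+ mice and 12.7, 1265 and 7691 FPKM in JunB dep replicates 0, 1 and 2, and their part in the Fabp3 or Ckb values was not tested.

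**Figure D5:**
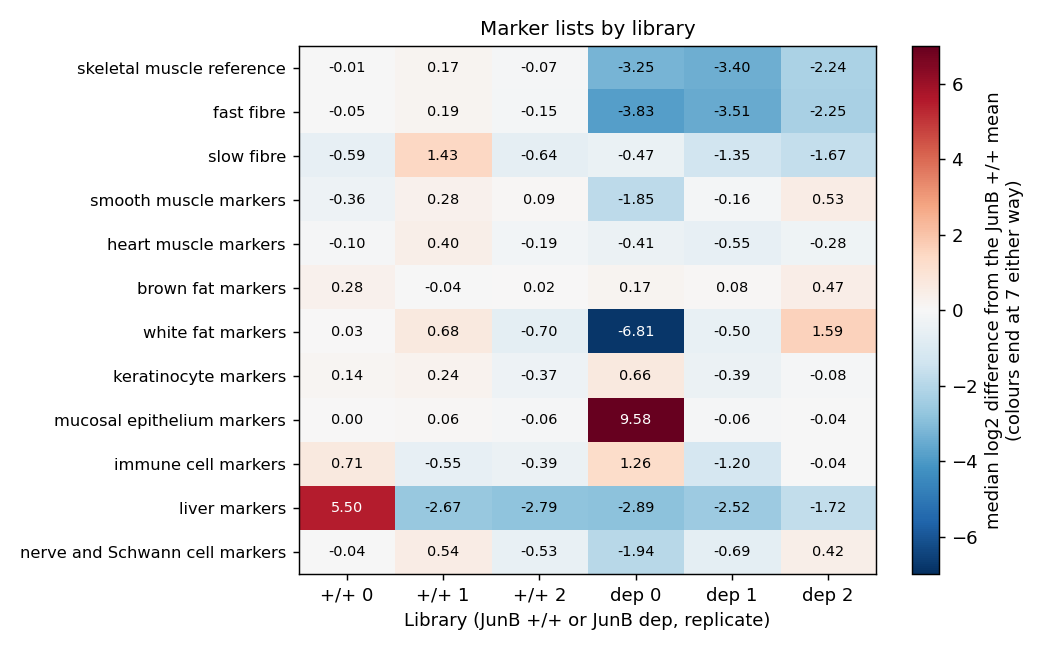
Median log2 level of each marker list relative to its control mean (colour and printed number) in each of the 6 libraries. Skeletal muscle lies at -3.25, -3.40 and -2.24 in JunB dep replicates 0, 1 and 2, mucosal epithelium at 9.58 in the library labelled JunB dep replicate 0, and liver at 5.50 in JunB +/+ replicate 0.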

How the data were processed

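Whole skin of 3 JunB +/+ and 3 JunB dep mice was sequenced as stranded poly(A) libraries, and groups and replicate numbers were taken from the sample labels. The authors ran the nextpresso pipeline, with FastQC, TopHat2 2.0.10, Bowtie 1.0.0 and SAMtools 0.1.19 on mm9 and the iGenomes annotation, and tested counts with DESeq2. They deposited FPKM values per gene and library, which were used as they stand. Cufflinks is among the tools in the submitters' processing notes, and the sources used here do not give the step that made the FPKM values, any scaling between libraries or the use of strand. Counts were not analysed here and depth is unknown. No column was left out.

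A linear model was fitted to log2(FPKM + 0.5) by limma 3.58.1 under R 4.3.3 (trend, no block, two-sided, Benjamini-Hochberg, threshold 0.05) over 17021 genes, those averaging 0.1 FPKM or more. P-values measure the spread between the mice of a group, 3 against 3. On simulated data with 200 changed genes among 17021, the fit found 0%, 55.1% and 74.4% of them for log2 changes of 1, 2 and 3. It made on average 0, 5.4 and 7.2 false calls. These rates belong to the simulated data. In the real data leaving out any single control gave 0 calls, so the rates need not hold there.

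The members and all gene lists were chosen with earlier results of these data known. All 9 members are described, and from each list at most the 4 genes of highest mean FPKM, those past the test and, per member, the 3 nearest profiles. Ucp1, Actn3, Pmp2, Lrrc52, Ptprc, Cd3e, 3 slow fibre genes, the overlapping genes and the transcripts that mark single libraries lie outside that rule. They were named after their values were seen, as was the list of other Lrrc genes. GENCODE vM1 gave positions on mm9, and promoter windows were taken from RefSeq on GRCm38.p6, matched exactly to mm9 (11 of 11 windows, 8 members). Alternatives were pseudocounts of 0.1 and 1, no filter or a mean of 1 FPKM, 3 other scalings, limma without trend, a replicate block, a block on the title numbers and each library left out. Python 3.11.15, pandas 2.3.3 and matplotlib 3.10.9 made tables and figures.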

Additional observations from a re-analysis of the deposited data

How the results depend on the processing

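Members were selected on this comparison, so counts of members called are a description. Over 17 alternatives the median log2 difference of the members and that of the 15 muscle genes moved by less than the spread between replicates, and leaving out single libraries gave -3.81 to -3.12 and -3.33 to -2.70. Without a filter on low values, 3 members were called in place of 5, with more genes tested. The filter at a mean of 1 FPKM called 6, with Mb gained, and limma without the trend called 4, with Fabp3 lost. The members called also swap, with Mb gained and Ckm lost on rescaling to a common sum or quantile normalization, and Mb gained and Ckm and Fabp3 lost without the library labelled JunB dep replicate 0. Leaving out single libraries gave 0 to 251 genes called over the whole table, 0 to 5 members and 0 to 6 genes of the pathway lists, with 0 of each without any of the 3 controls or JunB dep replicate 1. Without the library labelled JunB dep replicate 0, 131 genes were called, of which 11 were higher, and 3 pathway genes. With a replicate block, 0 genes, 0 members and 0 pathway genes were called. Same-numbered pairs deviated with r of 0.12, -0.228 and -0.426, and other pairs with r of -0.371 to 0.46. The replicate numbers thus showed no pairing. Deviations from a mean of 3 libraries depend on each other, so these values cannot exclude shared litters. The block on the title number series gave 0, 0 and 0 as well, and so did leaving out both the library labelled JunB dep replicate 0 and JunB +/+ replicate 0, an alternative chosen after seeing the data. Lrrc30 moved to -4.44 and -3.52 with pseudocounts of 0.1 and 1, and Lrrc38 to -4.69 and -3.09 and, rescaled to a common sum, to -4.14. The cause of the lost calls was not tested. The read depth is unknown, which limits the JunB dep values of Lrrc30 and Lrrc38 most.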
